A study of Mus musculus with 6 samples.

Results

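Arpin and the 9 subunit genes of the Arp2/3 complex were examined in primary mouse embryonic fibroblasts (MEFs), connective tissue cells cultured from embryos. The 10 genes (Arpin, Actr2, Actr3, Arpc1a, Arpc1b, Arpc2, Arpc3, Arpc4, Arpc5 and Arpc5l) were taken by symbol from a table of 26898 genes. They were selected on measured values of these samples, because Arpin showed one of the largest falls in the comparison described here. The value of Arpin in that comparison is therefore given as a description with no test, while the subunits entered as the complex that Arpin acts on.

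The study compared 3 WT samples (WT 4, 5 and 8) with 3 Kansl1 KO samples (KO 3, 7 and 10) by RNA sequencing of whole-cell RNA, as part of its work on autophagy-related genes under the chromatin regulator KANSL1. All cells were C57BL/6, carried Kansl1fl/fl alleles, were at passage 3 in 10% serum, and had received tamoxifen (1 μM) over 48 h. The serum share is that of the sample records, and the study's methods name a higher one for MEFs. The KO cells (Kansl1fl/fl/CAG-cre) also carried a Cre recombinase that tamoxifen activates and that the broadly active CAG promoter drives, whereas WT cells had none, so the deletion of Kansl1 and the presence of active Cre cannot be told apart. Per the study each group came from 3 mice, and the labels gave no batch or date.

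The Arp2/3 complex nucleates branched actin networks. It binds the side of an existing filament, and its actin-related subunits Arp2 (Actr2) and Arp3 (Actr3) then serve as the first units of a new branch, which drives the sheet-like lamellipodium at the front of a crawling fibroblast. WAVE and WASP family proteins, acting downstream of Rac and Cdc42, switch the complex on. Arpin is an inhibitor that is recruited downstream of Rac and binds the complex through an acidic tail at its C-terminus, without activating it.

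Recovered reads assigned to genes numbered 22812595 to 24263082 in WT and 17655495 to 27718259 in KO samples; KO 3 had the fewest and KO 7 the most. Kansl1, the targeted gene, stood at 28.5, 26.7 and 24.4 TPM (reads per gene length, scaled to a common total in each sample) in WT and at 13.7, 15.8 and 14.4 TPM in KO samples, or 55.1% of WT (log2 fold change -0.82, SE 0.11, limma adjusted p = 0.000859). This share of the gene-level signal remained in the samples called KO, and since the table sums all exons, the deleted part was not measured on its own. Fibroblast markers summed to 7194 to 11230 TPM in WT and 8219 to 10830 TPM in KO samples, and 0 of 9 were called by limma at the thresholds used here (1 had an unadjusted p under 0.05, and voom called 0). The 8 macrophage markers were all higher on average in KO samples, summing to 29.2 to 33.0 TPM against 67.7 to 139.0 TPM, with 1 of 5 tested called higher (Lyz2, which made up most of the sums). All 5 had an unadjusted p under 0.05, with Adgre1, Csf1r, Cd68 and Tyrobp at 203.4% to 295.9% of WT (limma adjusted p = 0.00632 to 0.0249), while Ptprc, Itgam and Fcgr1 stayed under 1 TPM in every sample. The 4 epithelial and the 4 endothelial markers were also higher on average in KO samples, at 40.4 to 45.7 against 49.2 to 66.3 TPM and at 1.1 to 1.87 against 2.31 to 3.1 TPM, with none called by limma (3 had an unadjusted p under 0.05, and voom called 1) and with Epcam, Cdh1, Pecam1, Cdh5 and Tek under 1 TPM throughout. The part of these cells in the results below was not tested. In RNA from whole cultures, more or fewer cells of a type and more or less RNA per cell cannot be told apart.

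Arpin (ENSMUSG00000039043.5) occupies bases 79925361 to 79935359 of chromosome 7 in mm10 and is transcribed from the minus strand. It was expressed at 38.6, 32.15 and 32.2 TPM in WT 4, 5 and 8 and at 6.22, 8.34 and 8.9 TPM in KO 3, 7 and 10. The lowest WT sample lay far above the highest KO sample, and KO 3 was the lowest of all. The mean was 34.3 ± 3.74 TPM (SD, n = 3) in WT and 7.82 ± 1.42 TPM (SD, n = 3) in KO MEFs, which is 22.8% of WT. The log2 fold change of KO over WT was -2.01 (SE 0.144). These levels rested on 713, 642 and 695 reads in WT and on 103, 184 and 181 reads in KO samples. By the size of its fall Arpin ranked 17th of 14799 tested genes, and 5th among called genes at or above the median expression. Its WT level stood at percentile 75.5 of the tested genes. Its exons overlapped no annotated exon of another gene.

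Genes were called changed at the study's thresholds, a limma adjusted p-value under 0.005 with a log2 fold change above 0.5 or below -0.5. Over all 14799 tested genes, 1579 were called (10.7%), of which 1337 were lower (9.03%) and 242 higher (1.64%). Arpin belonged to the lower genes by the way it was chosen. All 9 subunit genes passed the filter on low values, and 0 of 9 were called in either direction. By limma 0 of 9 reached an unadjusted p under 0.05, and voom on the recovered reads also called 0 of 9, with 4 subunits higher at an unadjusted p under 0.05 (Arpc1b, Arpc2, Arpc5 and Arpc5l). In this voom fit, with median-of-ratios library sizes, these 4 also had adjusted p-values under 0.05. The lowest was that of Arpc1b (voom adjusted p = 0.0048, log2 fold change 0.314), and none reached the fold threshold. With plain sums of reads as library sizes, voom called 0 of 9, with 3 higher and 1 lower at an unadjusted p under 0.05. Only Arpc1b and Arpc5l then had an adjusted p under 0.05 (voom adjusted p = 0.0169 and 0.0325). The share of all tested genes under that cut alone was not taken. The median log2 fold change was -0.023 over the subunits and -0.069 over all tested genes. The 9 intervals ran from -0.433 to 0.451, so that each excluded a change of 0.5 in either direction at the depth of these samples. An absolute log2 fold change under 0.25, which held for all 9 subunits, was also found for 47.7% of all tested genes.

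**Figure D1:**
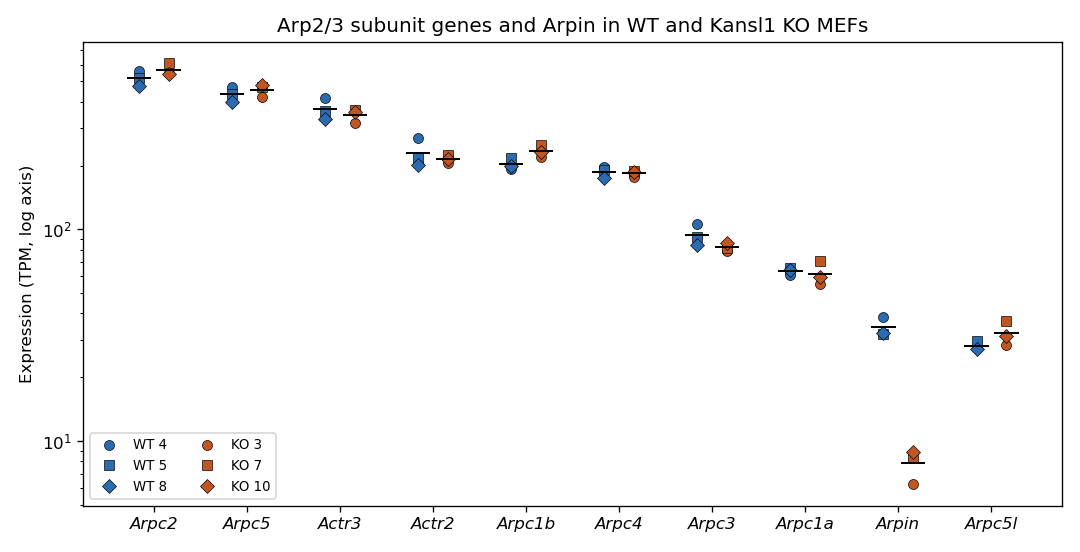
Expression of the 9 Arp2/3 subunit genes and Arpin in TPM on a log axis, ordered by WT mean; each point is a sample and each bar a group mean (n = 3). Arpin in KO samples lies between 6.22 and 8.9 TPM, under all other points, while the WT and KO points of each subunit lie close together.

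The 2 actin-related subunits form the seed of the new filament. By mean TPM among the 10 members, Actr3 ranked 3rd in both groups, and Actr2 ranked 4th in WT and 5th in KO samples. Actr3 (Arp3) was expressed at 416.5, 363.6 and 333.1 TPM in WT and at 318.2, 365.4 and 357.3 TPM in KO samples. The groups overlapped, with WT 4 the highest and KO 3 the lowest. The mean was 371.1 ± 42.2 TPM in WT and 347.0 ± 25.2 TPM in KO (SD, n = 3), a log2 fold change of -0.093 (SE 0.111, limma adjusted p = 0.566). Actr2 (Arp2) was expressed at 270.3, 217.5 and 200.04 TPM in WT and at 204.9, 223.3 and 215.4 TPM in KO samples. All KO samples lay within the WT range, whose upper end was set by WT 4. The mean was 229.3 ± 36.6 TPM in WT and 214.5 ± 9.24 TPM in KO (SD, n = 3), a log2 fold change of -0.085 (SE 0.121, limma adjusted p = 0.637).

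ARPC2 and ARPC4 form the core that grips the side of the existing filament. Arpc2 had the highest TPM of the members, at 559.5, 519.3 and 473.0 TPM in WT and at 545.6, 607.2 and 539.6 TPM in KO samples. KO 7 was the highest and WT 8 the lowest, and the groups overlapped. Its mean was 517.3 ± 43.2 TPM in WT and 564.1 ± 37.4 TPM in KO (SD, n = 3), a log2 fold change of 0.126 (SE 0.102, limma adjusted p = 0.391). Arpc4 was expressed at 196.1, 190.4 and 174.7 TPM in WT and at 176.9, 188.2 and 186.9 TPM in KO samples. The KO samples again lay inside the WT range. Its means were 187.1 ± 11.1 and 184.0 ± 6.15 TPM (SD, n = 3), a log2 fold change of -0.023 (SE 0.092, limma adjusted p = 0.879). ARPC3 is a small subunit that sits against Arp3. Arpc3 was expressed at 106.4, 92.2 and 84.3 TPM in WT and at 79.3, 81.5 and 85.65 TPM in KO samples. Only KO 10 reached into the WT range. Its means were 94.3 ± 11.2 and 82.2 ± 3.22 TPM (SD, n = 3). A log2 fold change of -0.191 (SE 0.108, limma adjusted p = 0.221) made it the lowest of the subunits.

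The remaining positions of the complex are each filled by 1 of 2 alternative proteins, ARPC1A or ARPC1B and ARPC5 or ARPC5L, so that cells can hold complexes of different make-up. Arpc1b was expressed at 192.4, 217.6 and 198.1 TPM in WT and at 218.9, 251.2 and 232.9 TPM in KO samples. Every KO sample lay above every WT sample, although KO 3 exceeded WT 5 by little. Such a lack of overlap was seen in 1 of the 9 subunits and in 43.2% of all tested genes. The mean of Arpc1b was 202.7 ± 13.2 TPM in WT and 234.3 ± 16.2 TPM in KO (SD, n = 3), or 115.6% of WT. The log2 fold change of 0.208 (SE 0.098, 95% interval -0.011 to 0.428) had a limma adjusted p = 0.146. Arpc1a was expressed at 60.7, 65.3 and 64.0 TPM in WT and at 55.1, 70.4 and 59.3 TPM in KO samples. The 2 most extreme values were both KO samples. Its means were 63.3 ± 2.4 and 61.6 ± 7.9 TPM (SD, n = 3), a log2 fold change of -0.046 (SE 0.111, limma adjusted p = 0.791).

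Arpc5 was expressed at 469.5, 436.3 and 397.4 TPM in WT and at 421.4, 467.6 and 479.7 TPM in KO samples. The groups overlapped over most of their range. Its means were 434.4 ± 36.1 and 456.2 ± 30.8 TPM (SD, n = 3), a log2 fold change of 0.072 (SE 0.102, limma adjusted p = 0.638). Arpc5l had the lowest TPM of the subunits, at 27.4, 29.6 and 27.1 TPM in WT and at 28.5, 37.0 and 31.2 TPM in KO samples. KO 7 was the highest and KO 3 lay within the WT range. Its means were 28.1 ± 1.39 and 32.2 ± 4.33 TPM (SD, n = 3), a log2 fold change of 0.187 (SE 0.117, limma adjusted p = 0.269).

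The scaling of the samples set the sign of several of these small differences. With TPM as deposited, 4 subunits were above 0 and 5 below 0. After median-of-ratios scaling, under which the median of all tested genes went from -0.069 to 0.023, 8 were above 0 and only Arpc3 was below 0, and Arpc1b, Arpc2, Arpc5 and Arpc5l had an adjusted p under 0.05 with log2 fold changes of at most 0.313. None of the 9 was called under either scaling. Of all tested genes, 473 were called higher and 1440 lower after median-of-ratios scaling, in place of 242 and 1337. The share of all tested genes under an adjusted p of 0.05 alone was not taken, so the 4 subunits cannot be set against it.

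**Figure D2:**
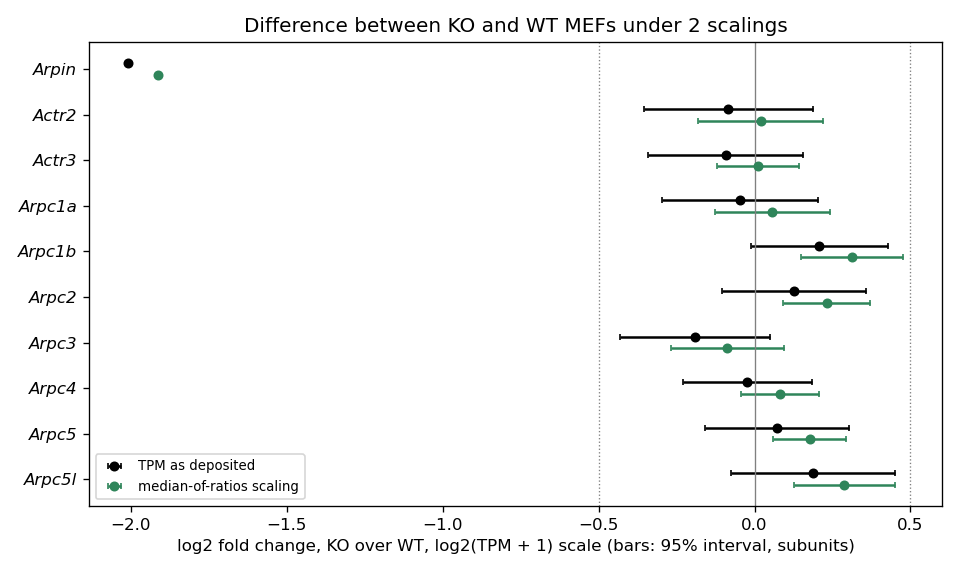
Difference between KO and WT, as a log2 fold change, for Arpin and the 9 subunits, with 95% intervals as bars for the subunits, for TPM as deposited and after median-of-ratios scaling; dotted lines mark the fold threshold of 0.5. The intervals of all subunits lie inside the dotted lines under both scalings, while Actr2, Actr3, Arpc1a and Arpc4 change sign between them, and Arpin lies near -2 under both.

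Some samples lay to one side of their group over most subunits. In KO 3, 0 of the 9 subunits were above their KO mean, against 8 in KO 7 and 5 in KO 10. In WT 8, 1 of the 9 subunits was above the WT mean, against 6 in WT 4 and 6 in WT 5. The tested genes as a whole were placed alike, with 14.5%, 85.0% and 62.3% above the group mean in KO 3, KO 7 and KO 10 and 20.9%, 63.6% and 65.1% in WT 8, WT 4 and WT 5. A single RNA, Gm23935, chosen for mention after its values were seen, held 24.3% of TPM in WT 8 and 25.6% in KO 3, the highest shares, and 15.5%, 18.4%, 15.5% and 19.9% in WT 4, WT 5, KO 7 and KO 10. When TPM was rescaled without it, standard errors of the subunits were 0.042 to 0.079 in place of 0.092 to 0.121. By limma 0 of 9 were then called, 4 had an unadjusted p under 0.05 (Arpc1b, Arpc2 and Arpc5l higher and Arpc3 lower), and Arpc1b alone had an adjusted p under 0.05 (limma adjusted p = 0.0334, log2 fold change 0.225). Of all tested genes, 310 were then called higher and 1750 lower, and the share under an adjusted p of 0.05 alone was not taken.

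TPM here is per length of all annotated exons of a gene, 5115 bp for Arpc1b, 4498 bp for Arpc5l and 2033 bp for Arpc2. The coding sequences of Arpc1b and Arpc5l hold 1119 and 462 bases. The transcripts in use were not measured, so the order between genes depends on these lengths. By TPM, the order in WT was Arpc2, Arpc5, Actr3, Actr2, Arpc1b, Arpc4, Arpc3, Arpc1a, Arpin and Arpc5l. Neighbours overlapped in their sample ranges for Arpc5 and Actr3, for Actr2 and Arpc1b, and for Arpc1b and Arpc4. In KO the order was Arpc2, Arpc5, Actr3, Arpc1b, Actr2, Arpc4, Arpc3, Arpc1a, Arpc5l and Arpin, and the only neighbours that overlapped were Arpc1b and Actr2. In TPM, Arpin thus stood above Arpc5l in WT samples and below it in KO samples. This change of place rests on exon lengths of 2277 bp for Arpin and 4498 bp for Arpc5l. In reads, not divided by length, Arpc5l lay above Arpin in both groups. The WT samples held 999, 1169 and 1156 reads of Arpc5l against 713, 642 and 695 of Arpin.

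Ratios within a sample do not depend on scaling. The ratio of Arpc1a to Arpc1b was 0.315, 0.3001 and 0.323 in WT and 0.252, 0.280 and 0.255 in KO samples. The groups did not overlap, with means of 0.313 ± 0.0118 and 0.262 ± 0.0157 (SD, n = 3). The log2 difference was -0.256 (two-sided exact permutation p = 0.1, the smallest that 3 against 3 samples allow; adjusted over the 2 ratios tested, p = 0.2). By TPM, Arpc1b made up 76.0%, 76.9% and 75.6% of the Arpc1 pair in WT and 79.9%, 78.1% and 79.7% in KO samples. These shares rest on exon lengths of 5115 bp for Arpc1b and 2567 bp for Arpc1a, beside coding sequences of 1119 and 1113 bases. As a fixed divisor, the length cancels in the log2 difference between groups. The exons of Arpc1b share 931 bp (18.2% of its length) with the opposite-strand gene Pdap1, which was at 62.2 TPM in WT and 55.7 TPM in KO (limma adjusted p = 0.341). Without strand in the library, reads of those bases cannot be told apart, so the level of Arpc1b and this ratio are uncertain to that extent.

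The ratio of Arpc5 to Arpc5l was 17.1, 14.7 and 14.7 in WT and 14.8, 12.7 and 15.4 in KO samples. The groups overlapped, with means of 15.5 ± 1.41 and 14.3 ± 1.43 (SD, n = 3), and the two-sided exact permutation p was 0.6 before and after adjustment. By TPM, Arpc5l made up 5.52%, 6.36% and 6.38% of the Arpc5 pair in WT and 6.33%, 7.33% and 6.11% in KO samples. These shares likewise rest on exon lengths, 4498 bp for Arpc5l and 2276 bp for Arpc5. The coding sequences of the alternative genes were 73.3% identical for Arpc1a and Arpc1b and 71.3% for Arpc5 and Arpc5l, and the longest run shared within each pair was 21 bases. Among the other members, Arpc4 shares 283 bp (12.2%) with the same-strand gene Ttll3, at 3.17 TPM in WT and 4.23 TPM in KO. Arpc1a shares 50 bp with Kpna7, which averaged 0.0365 TPM in WT and 0.0567 TPM in KO samples, and Arpc5l shares 62 bp with Rpl35 and Wdr38.

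Arpin TPM over the mean TPM of the 9 subunits was taken as an RNA ratio of inhibitor to subunits, as a description. Protein was not measured. The mean counts both alternatives of the Arpc1 and Arpc5 positions, so it is not a level of the complex. This RNA ratio was 0.151, 0.136 and 0.148 in WT and 0.0273, 0.0328 and 0.0366 in KO samples. The means were 0.145 ± 0.00827 and 0.0322 ± 0.00467 (SD, n = 3), so that KO samples held 22.2% of the WT ratio. The subunits together summed to 2299, 2132 and 1952 TPM in WT and to 2049, 2292 and 2188 TPM in KO samples, and these sums overlapped.

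**Figure D3:**
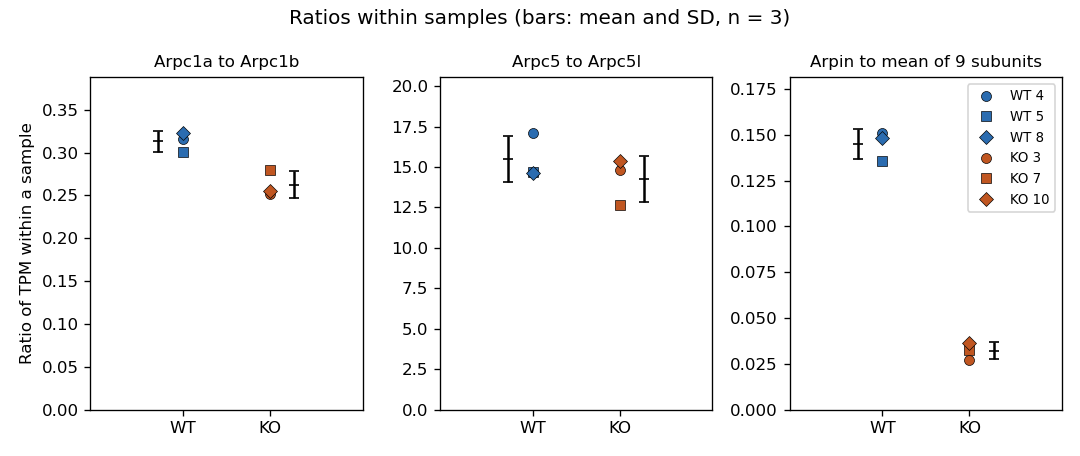
Ratios of TPM within each sample for Arpc1a to Arpc1b, Arpc5 to Arpc5l, and Arpin to the mean of the 9 subunits; points are samples and bars show mean and SD (n = 3). The KO samples lie below the WT samples for Arpc1a to Arpc1b (exact p = 0.1) and for Arpin to the subunits (no test), and overlap them for Arpc5 to Arpc5l.

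The genes that act on the complex or build actin networks beside it were described by 6 lists of 99 genes, of which 98 were in the table and 90 passed the filter. Of these 90 genes, limma called 2 higher and 5 lower, beside 1.64% and 9.03% of all tested genes. By voom, 5 of the 90 list genes were higher (Wasf1, Rac3, Baiap2, Fmnl2 and Inf2) and 6 lower. Beside them, voom called 642 of all 14799 tested genes higher and 1799 lower. Baiap2, Fmnl2 and Inf2 are named after their values were seen. Abi3 was not analysed here. The median log2 fold change of these 90 genes was 0.037, beside -0.069 over all tested genes, and 29 of the 90 did not overlap between groups, beside 43.2% of all tested genes.

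Nucleation promoting factors switch the complex on. Of a list of these factors and of the WASP-interacting proteins that bind them (Wipf1, Wipf2 and Wipf3), 9 of 11 were tested, with 1 higher and 1 lower (median log2 fold change -0.005). Wasf3, which encodes the WAVE3 activator, stood at 6.86, 5.38 and 4.18 TPM in WT and at 1.03, 1.11 and 1.14 TPM in KO samples. It fell to 20.02% of WT (log2 fold change -1.61, SE 0.181, limma adjusted p = 0.000424). Wasf1, encoding WAVE1, moved the other way, from 9.73, 11.95 and 11.01 TPM in WT to 15.8, 17.9 and 17.3 TPM in KO samples. Its log2 fold change was 0.598 (SE 0.117, limma adjusted p = 0.00496), just inside the threshold, and the call was lost in 3 of 8 refits on all samples and in each of 6 refits that left out a sample. Wasf2, the most abundant of the 3 WAVE genes, was at 84.2 ± 2.36 TPM in WT and 88.9 ± 5.92 TPM in KO (SD, n = 3; log2 fold change 0.075, limma adjusted p = 0.586); this gene was picked for mention after its values were seen.

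Among partners in the WAVE and WASH complexes, which hold those activators, 1 of 11 tested genes was lower (median 0.047). Washc3, a subunit of the endosomal WASH complex, went from 7.73, 8.5 and 8.62 TPM in WT to 2.67, 3.85 and 2.79 TPM in KO samples, a log2 fold change of -1.19 (SE 0.147, limma adjusted p = 0.000629). Its groups were far apart, with every KO sample below every WT sample. Of the Rac and Cdc42 signalling genes, 1 of 19 tested was higher (median 0.11). This was Rac3, a Rac family GTPase, which rose from 7.54, 9.53 and 8.24 TPM to 13.2, 18.5 and 15.9 TPM (log2 fold change 0.833, SE 0.145, limma adjusted p = 0.00286), with the call lost in 2 of 8 refits on all samples and when WT 4, WT 8, KO 7 or KO 10 was left out. Rac1 was at 178.7 TPM in WT and 192.6 TPM in KO (limma adjusted p = 0.482) and Cdc42 at 481.9 and 491.2 TPM (limma adjusted p = 0.854), both named after their values were seen.

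Of the other Arp2/3 inhibitors and branch regulators, a list that also held Actr3b, a paralog of Arp3, 0 of 10 tested were called by limma (median 0.079), 4 had an unadjusted p under 0.05, and voom called 2 (Coro7 and Pick1, both lower). The most abundant was Cttn (cortactin, which stabilises branches), at 328.6, 309.0 and 275.9 TPM in WT and 294.4, 347.4 and 328.6 TPM in KO samples. Its groups overlapped (log2 fold change 0.087, SE 0.107, limma adjusted p = 0.576). Coro7, a coronin, and Pick1, which binds and inhibits the complex, are named after their values were seen. Coro7 was at 6.06 TPM in WT and 3.75 TPM in KO (log2 fold change -0.58, limma adjusted p = 0.0187) and Pick1 at 1.15 and 0.418 TPM (log2 fold change -0.595, limma adjusted p = 0.0602). In both genes every KO sample lay below every WT sample. Actr3b itself was at 1.23 TPM in WT and 0.971 TPM in KO (log2 fold change -0.183, limma adjusted p = 0.519), and it too is named after its values were seen. Formins build straight filaments without the complex. In a list of formins and other nucleators (Spire1, Spire2, Cobl and Lmod1), 1 of 15 tested genes was lower by limma (median -0.013). Diaph3 stood at 43.1, 35.4 and 32.5 TPM in WT and at 13.3, 17.8 and 18.4 TPM in KO samples (log2 fold change -1.12, SE 0.151, limma adjusted p = 0.00088).

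Among genes of actin, its monomer-binding proteins and filament turnover, 2 of 26 were lower (median -0.017). Ssh3, a cofilin phosphatase of the slingshot family, went from 3.13, 3.7 and 3.04 TPM to 0.837, 1.38 and 1.36 TPM (log2 fold change -0.974, SE 0.177, limma adjusted p = 0.00351). Enah, which encodes the filament elongation factor Mena, went from 48.3, 53.1 and 50.3 TPM to 32.9, 36.95 and 35.99 TPM (log2 fold change -0.507, SE 0.098, limma adjusted p = 0.00474). In both genes every KO sample lay below every WT sample. The call of Enah was lost in 7 of 8 refits on all samples, and the calls of both Enah and Ssh3 were lost in each of 6 refits that left out a sample.

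**Figure D4:**
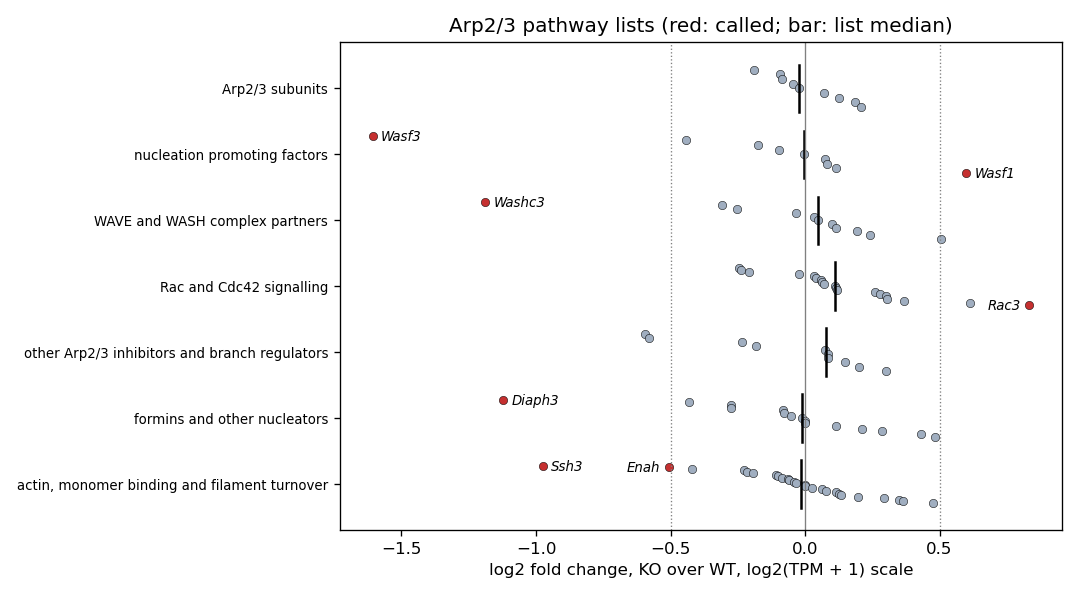
Difference between KO and WT, as a log2 fold change, for the tested genes of the Arp2/3 subunits and of 6 lists of related genes; each point is a gene (red where called), black bars are list medians and dotted lines mark the fold threshold of 0.5. The list medians lie between -0.023 and 0.11, and the 7 called genes lie beyond the dotted lines.

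The chromosomal surroundings of Arpin were examined in the annotation of the same build. The gene nearest to it, Ap3s2, encodes a small subunit of the AP-3 vesicle adaptor and begins 4711 bp downstream of Arpin on the same strand. Ap3s2 was expressed at 14.1, 12.4 and 12.5 TPM in WT and at 3.75, 4.7 and 4.48 TPM in KO samples. As with Arpin, each KO sample lay far below each WT sample. Its mean went from 12.97 ± 0.949 to 4.31 ± 0.498 TPM (SD, n = 3), or 33.2% of WT, and it was called lower (log2 fold change -1.4, SE 0.126, limma adjusted p = 0.000211). The next genes on that side were Anpep, 64301 bp away (log2 fold change 0.112, limma adjusted p = 0.702), and Mesp2, 111921 bp away and under the filter.

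On the upstream side, Zfp710, Idh2 and Sema4b lay 89454, 159486 and 251481 bp away. Their log2 fold changes were -0.102, -0.232 and -0.171 (limma adjusted p = 0.56, 0.175 and 0.332), and none was called. Within 500 kb on either side, a window chosen after the data were seen, 5 of 20 tested protein-coding genes were called, all of them lower, beside 9.03% of all tested genes called lower. The 5 (Ap3s2, Pex11a, Kif7, Ticrr and Fanci, the last 4 named after their values were seen) were all on the downstream side, where Anpep and Polg were not called.

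**Figure D5:**
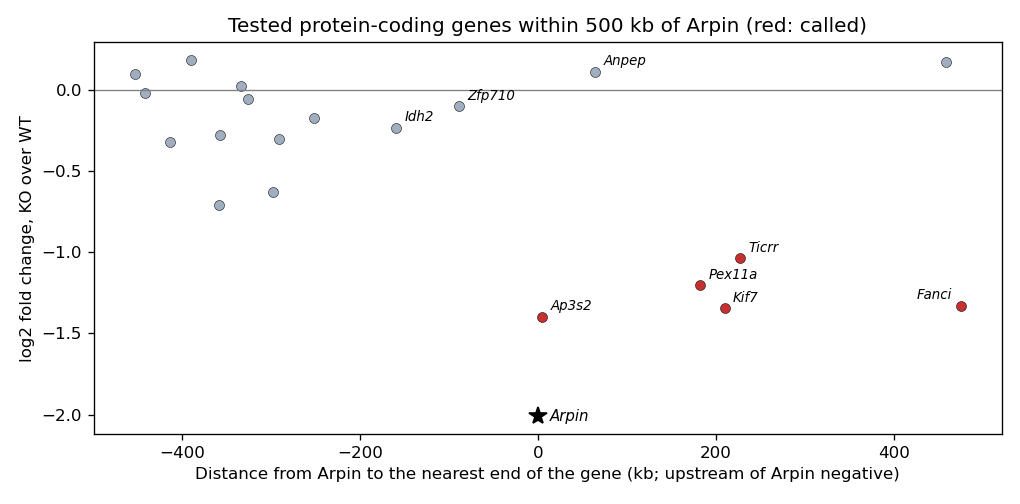
Difference between KO and WT, as a log2 fold change, of tested protein-coding genes by their distance from Arpin in kb, with upstream distances negative and called genes in red; the star is Arpin. The 5 called genes lie on the downstream side with log2 fold changes between -1.4 and -1.04, beside 2 that are not called. Upstream genes lie between -0.711 and 0.183, with none called.

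The promoters of these neighbours are printed because both genes were lower in KO samples. They run from 250 bases before to 50 bases after the RefSeq transcription start (GRCm38.p6), and both are on the minus strand. The GENCODE M21 gene of Arpin starts further upstream, at base 79935359. Part of the Arpin window before the RefSeq start, with its GC box, thus lies within the GENCODE gene. Capitals mark the matches to the motifs searched.
Arpin promoter, chr7:79935215-79935514: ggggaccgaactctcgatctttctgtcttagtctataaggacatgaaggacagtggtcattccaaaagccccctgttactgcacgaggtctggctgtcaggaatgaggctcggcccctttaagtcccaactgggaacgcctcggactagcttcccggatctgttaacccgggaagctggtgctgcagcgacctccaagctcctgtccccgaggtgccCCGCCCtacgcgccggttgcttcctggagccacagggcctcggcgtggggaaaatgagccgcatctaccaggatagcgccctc
Ap3s2 promoter, chr7:79920591-79920890: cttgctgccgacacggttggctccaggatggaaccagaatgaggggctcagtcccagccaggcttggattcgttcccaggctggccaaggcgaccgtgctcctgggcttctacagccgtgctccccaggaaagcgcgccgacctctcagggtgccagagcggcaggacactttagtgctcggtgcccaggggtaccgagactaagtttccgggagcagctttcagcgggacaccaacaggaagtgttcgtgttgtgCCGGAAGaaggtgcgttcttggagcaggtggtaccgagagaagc

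The Arpin window held 1 GC box (GGGCGG, here on the opposite strand at bases 218 to 223) and no match to an ETS motif (CCGGAAG). The Ap3s2 window held 1 ETS match at bases 257 to 263 and no GC box. Each had 18 CpG dinucleotides, at percentile 70.3 of 32851 RefSeq promoters of this length, whose median was 7. Arpin and all subunits except Arpc5l had a promoter entry, and the 9 members with one held 18 to 41 CpGs, with Arpin the lowest. On both strands, the GC box was found in 7 of these 9 promoters (35.7% of all promoters), the ETS motif in 5 (8.9%), an NRF1 core (GCGCATGC) in 3 (2.7%), CCAAT in 2 (37.4%), and TATAAA (13.6%) and a YY1 core (AAGATGGC, 2.7%) in 0. The shares over all promoters were not matched for base content, while the members' promoters stood at percentiles 70.3 to 96.5 for CpG count. The counts therefore cannot be read as an excess of motifs in the members. A match is a run of letters and not a bound site.

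Among genes averaging 10 TPM or more, those whose profile over the 6 samples was most like that of Arpin, by the root mean square difference of log2(TPM + 1) after subtracting each gene's WT mean, were Mzt2, Asf1b, Sumf1, Ctnnbl1 and Tmem9. Mzt2, a component linked to gamma-tubulin complexes, differed by 0.106 and went from 17.0 to 3.78 TPM. Asf1b, a histone chaperone, differed by 0.134 and went from 31.4 to 7.16 TPM. Sumf1, which activates sulfatases, differed by 0.167 and went from 38.4 to 7.5 TPM. Ctnnbl1, a spliceosome-associated protein gene, differed by 0.216 and went from 24.8 to 6.55 TPM, and Tmem9, a membrane protein gene, differed by 0.219 and went from 41.0 to 10.9 TPM. Correlations with Arpin were 0.982 to 0.997, a description over 6 samples that form 2 groups and share their libraries. No subunit of the complex was among these 5 genes.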

How the data were processed

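Per the study, libraries were made from 2 μg RNA with a NEBNext Ultra RNA kit, reads were aligned to mm10 with STAR, and the authors tested genes with DESeq2; the submitters' processing notes also name Bowtie 0.12.2, and the counting program, annotation and strand setting are not given in the sources used here. The kit as named is not the directional version, which is general knowledge and not a statement of the study. The authors deposited TPM for 26898 genes, of which 8908 had no symbol. Columns of log2 fold change and adjusted p-value that the authors deposited beside them hold their own comparison, and they entered no result. All gene identifiers matched GENCODE M21, which gave positions and exon lengths.

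TPM multiplied by exon length gave whole multiples of 1 read for 100.0% of 13075 to 14313 values of up to 200 reads checked per sample, at a tolerance of 0.05. The recovered reads describe depth and entered voom. They are reads assigned to genes, and their precision covers counting error only. That the 3 samples of a group were separate mice rests on the study's methods; otherwise the p-values would measure only the spread between samples.

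Log2(TPM + 1) values entered limma 3.58.1 under R 4.3.3 (variance trend, no covariate, Benjamini-Hochberg adjustment) over genes that averaged 1 TPM or more in WT or in KO samples. Fold changes on this scale understate the change of low genes. The main test was not one for counts, since the deposited unit is TPM. The fit was tested on simulated data, whose noise model was revised 2 times after low recovery, with the fit left as it was. Ratios were tested by exact permutation.

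The members, gene lists and filter were chosen with earlier results of these data known. Named genes are the members, Kansl1, called list genes, the most abundant gene of a list with no call, genes overlapping a member, the 3 nearest genes on each side, and the 5 genes most like Arpin. The window of 500 kb and the motifs were chosen after the data were seen. Alternatives were other pseudocounts (0.1 TPM), filters (none, or a mean of 10 TPM), scaling, no variance trend, voom, an adjusted p under 0.05, and leaving out each sample. The voom library sizes were not set in the plan: plain sums of reads were run first, and median-of-ratios sizes replaced them after that result was seen. Subunit results and counts of called genes are given for both. A voom result with no library size named used median-of-ratios sizes.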

Additional observations from a re-analysis of the deposited data

How the results depend on the processing

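Across all settings, 0 of 9 subunits were called and Arpin kept its direction, at -2.13 (pseudocount of 0.1 TPM) to -1.91 (median-of-ratios scaling) on all samples and -2.1 to -1.87 with a sample left out. With a sample left out, subunit intervals reached -0.54 and 0.553, beyond the fold threshold, and 1 or 2 subunits had an unadjusted p under 0.05 without WT 8 or KO 3. Of the called genes, in place of 1579 (242 higher, 1337 lower), there were 341 (55 and 286) with no filter, 3147 (694 and 2453) at an adjusted p under 0.05, and 2441 (642 and 1799) with voom; with plain sums as the voom library size, added after seeing the data, there were 2585 (433 and 2152). Under median-of-ratios scaling 473 genes were higher. Leaving out a sample gave 758 to 1081 called, 84 to 252 higher and 617 to 938 lower genes. Of the list genes, in place of 7, there were 0 with no filter, 4 without the variance trend, 11 with voom (10 with plain sums) and 3 to 5 with a sample left out. The cause of these shifts was not tested. Under median-of-ratios scaling and voom with median-of-ratios sizes, Actr2 (0.02 and 0.019), Actr3 (0.012 and 0.012), Arpc1a (0.057 and 0.059) and Arpc4 (0.082 and 0.08) reversed. In voom with plain sums they kept their sign (Actr2 -0.065, Actr3 -0.073, Arpc1a -0.024 and Arpc4 -0.004). With a sample left out, Actr2 ranged from -0.177 to 0.039, Arpc1a from -0.145 to 0.029 and Arpc4 from -0.071 to 0.012. The log2 differences of the ratios ranged from -0.305 to -0.228 (Arpc1a to Arpc1b), -0.177 to -0.037 (Arpc5 to Arpc5l) and -2.28 to -2.07 (Arpin to the subunits). The filter of 10 TPM gave no value for Wasf3, Washc3, Ssh3 and Ap3s2. No paired analysis was possible because no replicate number occurs in both groups.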
